A study of Mus musculus with 16 samples.

Results

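The genes described here are 41 genes of autophagy, mitophagy and the lysosome, given as a list of gene symbols, out of 23222 symbols in the deposited tables. All 41 were found in each of the 4 tables, and all 41 passed the filter on low values in each comparison. They were compared in myofibers, the multinucleated contractile cells of skeletal muscle, isolated from the extensor digitorum longus, a fast hindlimb muscle, and cleared of attached mononucleated cells. The mice were male C57BL/6 animals with no engineered allele named in the labels. Young controls and young runners were 4 months old, old controls and old runners were 22 months old, and each group had 4 RNA-seq libraries. Runners had 5 weeks of voluntary access to a running wheel, and the controls had none. The labels do not say whether each library came from its own animal, so each p-value measures only how these libraries spread.

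Autophagy encloses cytoplasm in a double membrane, the autophagosome, and delivers it to the lysosome for breakdown. The ULK1 kinase complex starts the process, a phosphatidylinositol 3-kinase (PI3K) complex marks the growing membrane with a lipid, and ATG9A vesicles and the lipid transfer protein ATG2A supply membrane. A ubiquitin-like conjugation system then attaches ATG8 proteins (the LC3 and GABARAP families) to that membrane. Receptors such as SQSTM1 tether cargo to ATG8 proteins, while PINK1, BNIP3, BNIP3L and FUNDC1 direct damaged or surplus mitochondria into the same route, which is called mitophagy. Cathepsins and glycosidases digest the cargo inside the lysosome. TFEB and TFE3 are transcription factors that bind an E-box, CACGTG, in promoters of many lysosomal and autophagy genes. In skeletal muscle the pathway is active between meals and during endurance exercise, and loss of GAA, which digests glycogen in the lysosome, causes Pompe disease, in which lysosomal glycogen accumulates in muscle.

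The promoter stretches below show where the E-box letters lie in members of different steps. RefSeq windows of build GRCm38.p6, running from 250 bases before to 50 bases after an annotated start, were found for 33 of the 41 genes. CACGTG, which reads the same on both strands, was present in 9 of these 33 genes (27.3%) and in 8.09% of the 27025 genes in the table. The 9 were Atg14, Atg3, Atg5, Atg7, Bnip3, Ctsd, Ctsl, Gaa and Lamp1. TCACGTGA, a longer form that contains CACGTG and also reads the same on both strands, was in Atg3 and Ctsd (6.06%) and in 1.12% of genes. Capitals mark the matches. Lamp1, which codes for a main protein of the lysosomal membrane, is shown for its 4 matches within 1 stretch on the plus strand at chr8:13159080-13159160. Atg3 (plus strand, chr16:45158715-45158784) and Ctsd (minus strand, chr7:142387899-142387946) are shown for the longer form, and Gaa (plus strand, chr11:119267803-119267848) for a single match before a glycosidase gene.
Lamp1: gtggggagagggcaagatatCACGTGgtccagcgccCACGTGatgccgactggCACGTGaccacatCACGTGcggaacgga
Atg3: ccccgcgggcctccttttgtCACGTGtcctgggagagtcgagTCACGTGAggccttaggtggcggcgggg
Ctsd: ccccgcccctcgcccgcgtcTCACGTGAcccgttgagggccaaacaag
Gaa: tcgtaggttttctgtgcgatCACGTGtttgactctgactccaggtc
A match describes letters only. On the mean running effect defined below, the 9 members with the letters ranged from -0.33 to 0.44 (median 0.04, 5 positive) and the 24 without from -0.27 to 0.68 (median 0.00, 12 positive).

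Between 30.7 M and 67.4 M reads per library were assigned to genes (median 47.0 M), and levels are given as normalised reads, the assigned reads after scaling for library size. Marker genes of myofibers summed to 4353281 to 8267702 normalised reads in every library. Fibro-adipogenic progenitor markers (genes of interstitial connective tissue cells) summed to 61 to 692 in young controls, 4027 to 12112 in young runners, 237 to 2136 in old controls and 1961 to 4030 in old runners. Within that list Dcn was higher in runners by 2.27 (limma, adjusted p = 0.000344) and Gsn by 2.41 (limma, adjusted p = 0.000686) on the log2 scale. These are picked from 9 markers, and the others are not given singly. One of them, Pdgfra, had no reads in any old control or old runner. Macrophage and leukocyte markers summed to 550 to 2552, 919 to 2767, 307 to 1166 and 551 to 1520 in these groups, mostly through Cd68, and Adgre1, Ptprc and Tyrobp were absent or at 25 reads or fewer. Other cell types' markers moved too. From young controls to young runners, without overlap, endothelial markers went from 350 to 1228 up to 1563 to 6068, smooth muscle and pericyte markers from 52 to 491 up to 692 to 2909 and satellite cell markers from 4975 to 6953 up to 7045 to 8379. In old controls and old runners these sums were 647 to 5878 and 1257 to 4565, 259 to 1465 and 621 to 2899, and 3110 to 6864 and 5914 to 6475. Of the satellite cell markers, Pax7, Calcr and Chodl had no reads in old controls, and Calcr had none in old runners. Myh11, a smooth muscle marker, had none in old controls. Schwann cell markers summed to 2 to 113 in young controls, 53 to 176 in young runners, 205 to 644 in old controls and 161 to 330 in old runners. The part of these cells in the running and age differences below was not tested. Differences between runners and controls also rose with exon length, as a description across genes: Spearman's rho was 0.246 for the mean running effect (9176 genes), 0.339 in old mice (9199 genes) and 0.122 in young mice (10403 genes). The counting was not stated to use strand, so reads of a gene and of one overlapping it on the other strand cannot be told apart. In such bulk RNA, fewer cells of a type and less RNA per cell cannot be told apart either.

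The pathway was expressed throughout the fibres, and its members differed more in level among themselves than between groups. Per kilobase of exon, the highest member exceeded the lowest 451-fold, with all annotated exons of a gene merged into its length. Of the members, 33 of 41 stood above the median of 227 normalised reads per kilobase over 9176 genes. Pink1, the kinase that marks damaged mitochondria, led with 27785 per kilobase, rank 68 among those genes. It was followed by Sqstm1, which codes for the cargo receptor p62, with 19766 per kilobase, and by Map1lc3a, an ATG8 protein, with 16476. Lamp1 (10958) and Ctsd (10591), a lysosomal aspartic protease, came next on the same scale, then Bnip3 (8651), a mitophagy receptor in the outer mitochondrial membrane. Genes that start and shape the autophagosome, ATG8 proteins aside, reached at most 1370 (Atg9a) and 1263 (Atg4a) per kilobase. Their range held members of other steps, such as Fundc1 (1259), Nbr1 (809.6) and Lamp2 (668). Uvrag, a PI3K complex subunit, was lowest with 61.7 per kilobase, and Atg7, the enzyme that activates ATG8 proteins, stood at 107. Of the transcription factors, Tfeb stood at 907 and Tfe3 at 78.7 per kilobase. The order depends on these lengths. Map1lc3b, with 7.52 kb of merged exon, had a mean of 24448 normalised reads, above the 19458 of Map1lc3a with 1.18 kb. Per kilobase Map1lc3b stood at 3252. The spread between libraries of 1 group also differed between members. Becn1 had the smallest within-group SD, 0.13 on the log2 scale, and Atg2a the largest, 1.04, beside a median of 0.26.

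**Figure D1:**
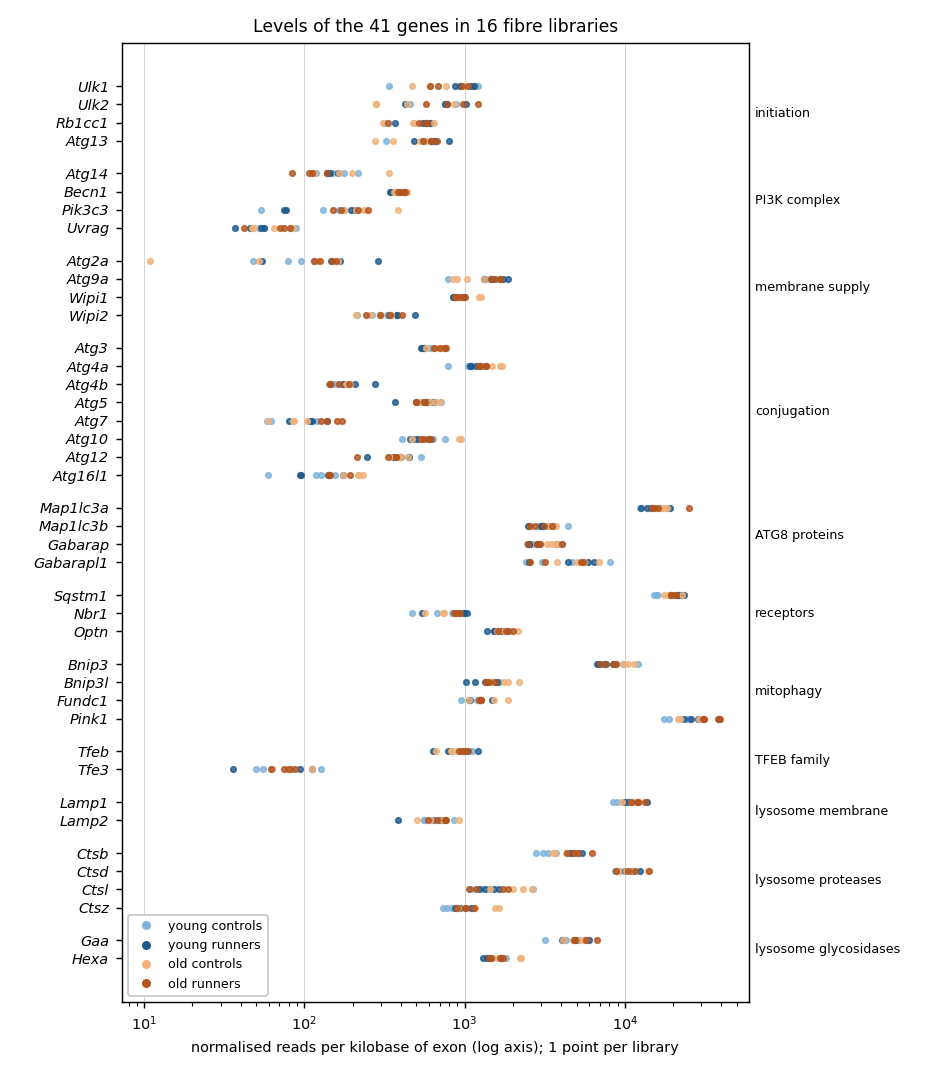
Normalised reads per kilobase of exon (log axis) of the 41 genes, grouped by step of the pathway, with 1 point per library coloured by group (4 libraries each). Pink1, Sqstm1 and Map1lc3a lie at the right, Uvrag, Tfe3 and Atg7 near the left, and the 4 colours mostly mix within a gene.

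The first question was whether voluntary running moved these genes. Averaged over both ages, with 16 libraries in 1 fit, 3 of the 41 genes rose in runners and none fell at an adjusted p under 0.05. These were Ctsb, a lysosomal cysteine protease, Atg9a, the membrane protein of the vesicles that seed autophagosomes, and Pink1. The 3 genes are 7.32% of the list, while 9.92% of the 9356 genes tested passed (5.07% higher, 4.85% lower), so the list's share was not above that of all genes. At an unadjusted p under 0.05 there were 15 members (36.6%), 10 higher and 5 lower, against 28.7% of all genes (16.2% higher, 12.5% lower). The median member difference was -0.02 on the log2 scale, with 19 positive and 22 negative, beside a median of 0.04 over all genes. Within each age alone no member passed: 0 of 41 in old mice, where 0.128% of genes passed, and 0 of 41 in young mice, where 0.762% passed. At an unadjusted p under 0.05, limma gave 11 members in old mice (6 higher, 5 lower; 26.8%, against 17.4% of genes, 10.3% higher and 7.04% lower) and 5 in young mice, each of them higher (12.2%, against 17.4% of genes in either direction and 8.85% higher).

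**Figure D2:**
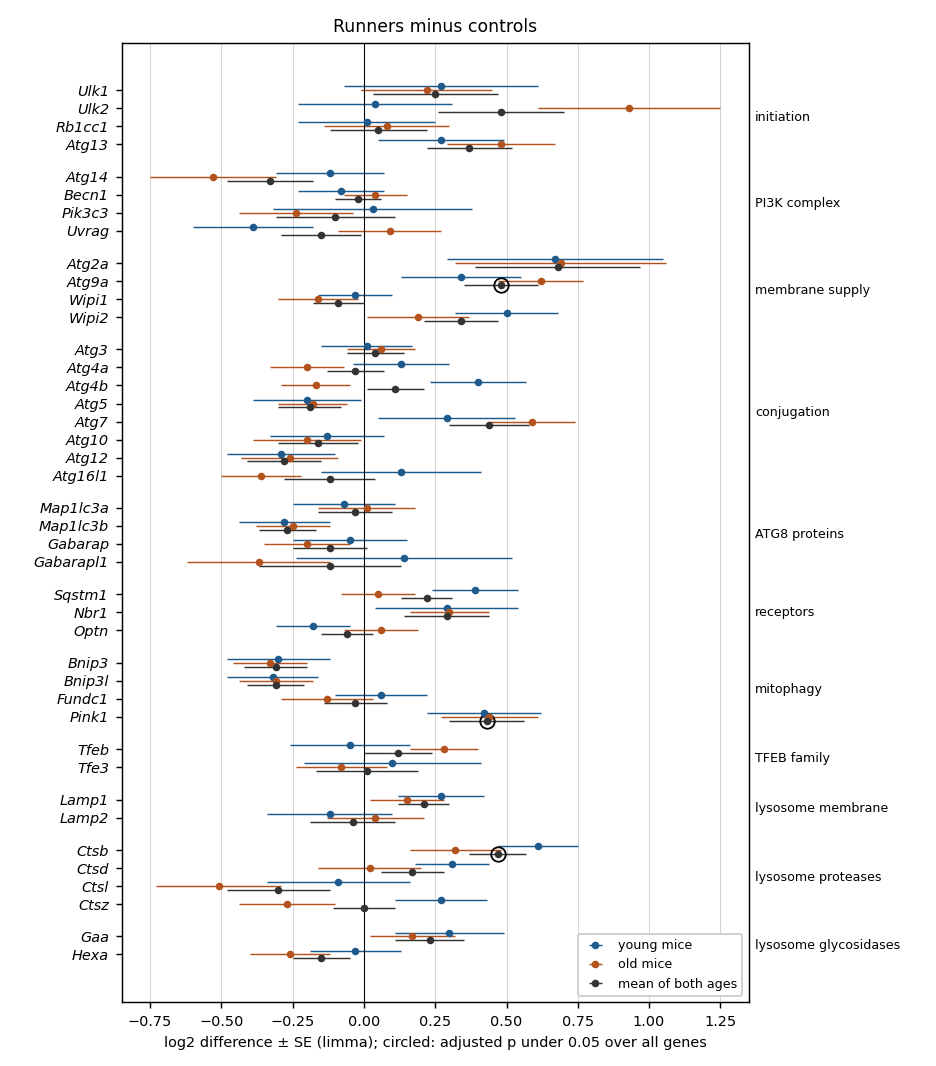
Log2 difference of runners minus controls (horizontal axis, ± SE from limma) for each gene by step, in young mice, old mice and as the mean of both ages; circles mark an adjusted p under 0.05. The circled values are Atg9a at 0.48, Pink1 at 0.43 and Ctsb at 0.47, and the 4 means of initiation are positive while those of the PI3K complex and of the ATG8 proteins are negative.

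Values of single libraries are given in the order Yc4, Yc5, Yc7 and Yc8 for young controls, Y1ex to Y4ex for young runners, Oc1 to Oc4 for old controls and O1ex to O4ex for old runners. These are the column names of the deposited tables. O1ex to O3ex and Y1ex to Y3ex are also sample titles, whereas the names of the control columns, O4ex and Y4ex are no sample's title and give only the group, by their letters. All values are normalised reads, and all differences are log2 differences of the deposited values, which shrink the changes of weakly read genes. Ctsb (chr14:63122462-63145923, plus strand) had 20063, 22471, 16799 and 18673 normalised reads in young controls and 28759, 30670, 32894 and 27490 in young runners. In old controls it had 25889, 29972, 22105 and 21495, and in old runners 37801, 29145, 26287 and 30725. Each young runner lay above each young control, while the old groups overlapped. The group means were 19502 ± 2389 and 29953 ± 2356 in the young mice and 24865 ± 3920.1 and 30989 ± 4898 in the old (SD, n = 4). The mean running difference was 0.47 (SE 0.10, limma adjusted p = 0.0111). It was 0.61 in young mice (SE 0.14, adjusted p = 0.0711) and 0.32 in old mice (SE 0.16, adjusted p = 0.323), and these differences themselves differed by -0.29 (95% interval -0.72 to 0.14, adjusted p = 0.868). The mean difference kept its call in each of 27 alternative analyses, with an adjusted p from 0.00109 to 0.0408. Ctsb shares exon sequence with Fdft1 on the other strand, which differed by -0.09 (limma adjusted p = 0.534). Of macrophage markers, Cd68, which makes up most of their sum, differed by 0.26 (limma adjusted p = 0.621) and Lyz2 by 0.80 (limma adjusted p = 0.0521; 0.94 in young and 0.67 in old mice), while Mrc1 differed by -1.22 in young mice (limma adjusted p = 0.0962). The marker sums of fibro-adipogenic, endothelial and smooth muscle cells were higher in young runners as given above. Their part in the Ctsb difference was not tested.

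The other lysosomal proteases did not pass. Ctsd (chr7:142375911-142388038, minus strand) had 20838, 22030, 20264 and 20596 normalised reads in young controls and 25873, 29203, 26312 and 23404 in young runners. It had 21190, 26361, 23888 and 32767 in old controls and 33236, 27124, 20571 and 24753 in old runners. Young runners lay above young controls without overlap, and the old groups overlapped, with a mean difference of 0.17 (SE 0.11, limma adjusted p = 0.317). Ctsz, a carboxypeptidase, had 1206, 1050, 1271 and 1120 in young controls, 1345, 1572, 1639 and 1248 in young runners, 1317, 1666, 2376 and 2230 in old controls and 1647, 1293, 1467 and 1454 in old runners. Its running difference was 0.27 in young mice and -0.27 in old mice. Ctsl, a further cysteine protease, differed by -0.09 in young and -0.51 in old mice (limma adjusted p = 0.881 and 0.264). All 4 proteases thus had a lower running difference in old than in young mice, though those of Ctsb (0.32) and Ctsd (0.02) in old mice were still positive. The contrasts ran from -0.29 to -0.55, and none of them passed (lowest limma adjusted p = 0.786).

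Lysosomal membrane and sugar-cleaving genes had small differences. Lamp1 had 27506, 26342, 22487 and 23842 normalised reads in young controls and 26725, 29756, 36863 and 28456 in young runners. It had 29602, 29316, 25901 and 32658 in old controls and 36053, 32582, 29211 and 31717 in old runners. Its groups overlapped at both ages, with a mean running difference of 0.21 (SE 0.09, limma adjusted p = 0.147). Gaa, the glycogen-digesting glucosidase, had 15234, 24686, 20578 and 19735 in young controls and 19382, 27086, 28578 and 23586 in young runners. It had 25275, 22546, 19708 and 27084 in old controls and 32239, 23444, 23152 and 27479 in old runners, which again overlapped (0.23, SE 0.12, limma adjusted p = 0.213). Lamp2, the partner of Lamp1, differed by -0.04, and Hexa, the alpha subunit of beta-hexosaminidase, by -0.15.

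**Figure D3:**
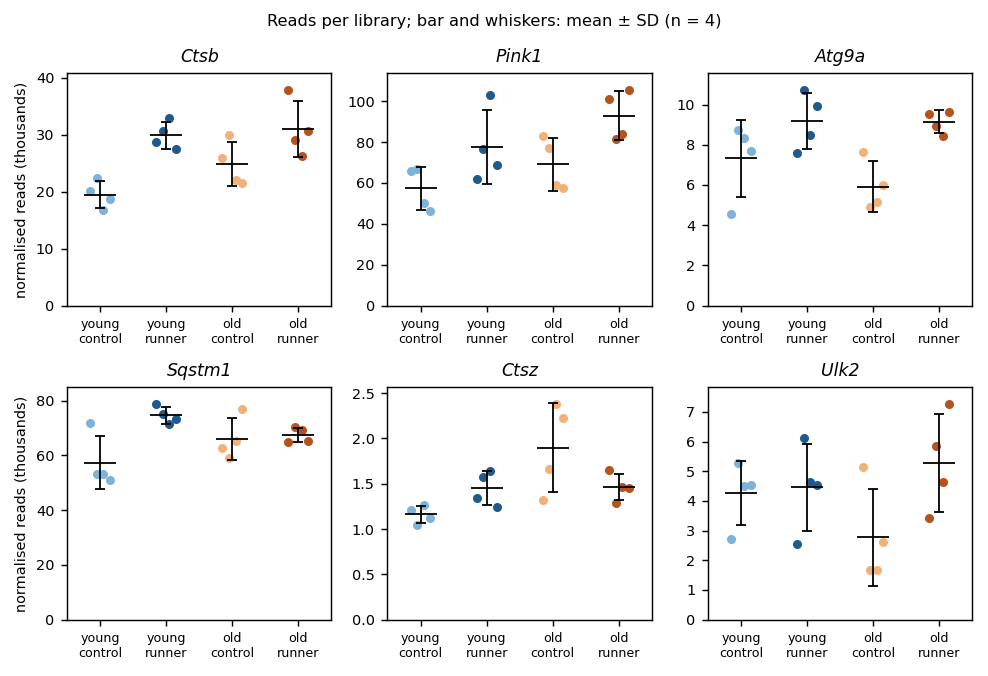
Normalised reads per library (vertical axis from 0) for 6 genes in the 4 groups, with the mean and SD of 4 libraries as bars. Runners lie above controls without overlap for Ctsb in the young and for Atg9a in the old mice, while the groups of Pink1 and Ulk2 overlap at both ages.

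The 4 mitophagy genes did not move together. Pink1 (chr4:138313409-138326307, minus strand) had 66053, 66736, 50199 and 46536 normalised reads in young controls and 62138, 76546, 103038 and 68625 in young runners. It had 83035, 77030, 58937 and 57505 in old controls and 101149, 81677, 83856 and 105232 in old runners. In each age 1 or more runners fell within the control range, and the running differences were 0.42 in young and 0.44 in old mice. Their mean, 0.43 (SE 0.13, limma adjusted p = 0.0456), lay close to the threshold. The call was lost on leaving out any 1 of O1ex, O2ex, O3ex, O4ex, Oc2, Oc3, Oc4, Y2ex, Y3ex, Y4ex, Yc7 and Yc8 (limma adjusted p from 0.0518 to 0.0957). It was also lost with no filter (adjusted p = 0.0771), median centring (0.0785), quantile normalisation (0.0576) and limma without the variance trend (0.0541). By contrast Bnip3 differed by -0.31 (SE 0.11, limma adjusted p = 0.0767) and Bnip3l, its close relative, by -0.31 (SE 0.10, limma adjusted p = 0.0543), neither past the threshold. Bnip3 ranged from 15756 to 19888 in old runners and from 20014 to 25606 in old controls, without overlap. Fundc1, a receptor in the outer mitochondrial membrane, differed by -0.03. The step thus held 1 gene called higher, and 2 lower genes at an unadjusted limma p of 0.0111 and 0.00578 that did not pass the adjustment.

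Among genes that supply and mark the growing membrane, Atg9a rose. It (chr1:75180860-75192196, minus strand) had 4555, 8740, 8315 and 7686 normalised reads in young controls and 7596, 10698, 8506 and 9950 in young runners. It had 7657, 4903, 5142 and 5983 in old controls and 9549, 8944, 8438 and 9648 in old runners. The old groups did not overlap and the young groups did, with Yc4 the lowest of all 16 libraries. The mean running difference was 0.48 (SE 0.13, limma adjusted p = 0.0322), with 0.62 in old mice (adjusted p = 0.109) and 0.34 in young mice (adjusted p = 0.428). The call was lost on leaving out any 1 of O1ex, O2ex, O4ex, Oc2, Oc3, Y2ex and Y4ex (limma adjusted p from 0.0538 to 0.0743). It was also lost with no filter (adjusted p = 0.0509), with quantile normalisation (0.0522), once the trend with exon length was removed (0.38, adjusted p = 0.0836) or a length index of each library (how its deviations from the mean of all libraries track exon length) was a covariate (0.32, adjusted p = 0.0923), whereas Ctsb and Pink1 passed in both. Wipi2, which recruits the conjugation machinery to the lipid mark, had 3473, 2259, 2781 and 3120 in young controls and 5200, 4008, 3580 and 3972 in young runners, without overlap. It had 3168, 2728, 2218 and 3658 in old controls and 2552, 4295, 3113 and 3617 in old runners, and its mean difference was 0.34 (SE 0.13, limma adjusted p = 0.094). Atg2a had the largest mean difference of the list, 0.68, with an SE of 0.29 (limma adjusted p = 0.132), and Wipi1, a relative of Wipi2, had -0.09.

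The initiation kinases and scaffolds leaned upward in runners, with a median of 0.31 and 4 of 4 means positive, but none passed. All 4 genes also followed the length index over the 16 libraries (r = 0.73 for Ulk1, 0.72 for Ulk2, 0.79 for Rb1cc1 and 0.81 for Atg13, a description with no test), and the part of this in the step's differences was not tested. Ulk1 had 2197, 7854, 7515 and 6210 normalised reads in young controls, 5678, 6106, 7386 and 7143 in young runners, 4936, 3051, 3972 and 6600 in old controls and 3972, 6797, 6258 and 4415 in old runners. All these groups overlapped (0.25, SE 0.22, limma adjusted p = 0.493). Ulk2, the related kinase, had 2728, 5282, 4488 and 4542 in young controls, 2556, 6115, 4642 and 4522 in young runners, 5143, 1664, 1676 and 2625 in old controls and 3419, 5835, 4629 and 7252 in old runners. Its difference in old mice, 0.93 (SE 0.32, limma adjusted p = 0.184), was the largest of the list there, and in young mice it was 0.04. With the length index as a covariate the difference in old mice was 0.29 (limma adjusted p = 0.686). The contrast of the ages was 0.89 (SE 0.45, limma adjusted p = 0.788), and 1.34 (adjusted p = 0.192) without the 4 libraries with fewest genes. Atg13, a regulatory subunit, differed by 0.37 (limma adjusted p = 0.116) and Rb1cc1, the scaffold FIP200, by 0.05.

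The PI3K complex pointed the other way, with a median of -0.13 and 4 of 4 means negative, and again no gene passed. Becn1, the Beclin 1 subunit, had 3047, 3046, 2634 and 2467 normalised reads in young controls, 2424, 2712, 2996 and 2439 in young runners, 3105, 2877, 2549 and 2672 in old controls and 2728, 2933, 2805 and 2979 in old runners. Its groups overlapped, and its interval bounded the mean running difference between -0.20 and 0.16. Atg14, the subunit that directs the complex to autophagy, had 649, 513, 761 and 930 in young controls, 606, 595, 701 and 623 in young runners, 1449, 715, 498 and 862 in old controls and 360, 463, 596 and 485 in old runners. Its mean difference was -0.33 (SE 0.15, limma adjusted p = 0.154). Pik3c3, the lipid kinase itself, had 787, 239, 583 and 740 in young controls, 343, 877, 335 and 920 in young runners, 1729, 794, 944 and 1053 in old controls and 761, 1121, 679 and 960 in old runners. It differed by -0.10 (limma adjusted p = 0.787), and Uvrag by -0.15.

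In the conjugation system no enzyme passed, and the step's median was -0.07. Atg7 came closest. It had 433, 840, 742 and 409 normalised reads in young controls, 560, 968, 755 and 777 in young runners, 414, 594, 604 and 724 in old controls and 960, 1203, 881 and 1121 in old runners. Every old runner lay above every old control, and the mean difference was 0.44 (SE 0.14, limma adjusted p = 0.055). Atg4b, a protease that primes ATG8 proteins, had 1248, 1213, 1182 and 1322 in young controls, 1726, 1474, 2278 and 1435 in young runners, 1593, 1574, 1541 and 1498 in old controls and 1193, 1193, 1370 and 1575 in old runners. Runners were thus higher in every young library, but most old runners lay below the old controls, and the contrast between the ages was -0.57 (SE 0.20, limma adjusted p = 0.711), the smallest p of the list for that contrast. Of the other enzymes, Atg12, the ubiquitin-like partner of ATG5, had a mean difference of -0.28 (limma adjusted p = 0.166) and Atg5 of -0.19 (limma adjusted p = 0.263). Atg3, the enzyme that transfers ATG8 proteins to lipid, had 0.04, Atg4a -0.03, Atg10 -0.16 and Atg16l1 -0.12.

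The ATG8 proteins and the receptors of cargo stood at high levels. Map1lc3a had 19964, 14633, 17936 and 21719 normalised reads in young controls, 17152, 16275, 22710 and 14934 in young runners, 19807, 21757, 19236 and 21101 in old controls and 29683, 18054, 17431 and 18929 in old runners. Its groups overlapped, and its mean difference was -0.03 (95% interval -0.30 to 0.24). Map1lc3b, the other LC3 gene, differed by -0.27 (SE 0.10, limma adjusted p = 0.0935), Gabarap by -0.12 and Gabarapl1 by -0.12. Sqstm1 (chr11:50199366-50210827, minus strand) had 71959, 53272, 53108 and 51107 in young controls, 78619, 75162, 71537 and 73209 in young runners, 62604, 58973, 65128 and 76769 in old controls and 65016, 70314, 69156 and 65414 in old runners. The young groups barely met, with Yc4 just above Y3ex on this scale and just below on that of the deposited table of young mice. The difference was 0.39 in young mice (SE 0.15, limma adjusted p = 0.227; 0.25 with quantile normalisation) and 0.05 in old mice (SE 0.13, limma adjusted p = 0.878). Optn, a receptor for ubiquitinated mitochondria, had 6628, 6378, 7101 and 5885 in young controls, 5699, 5150, 5760 and 6354 in young runners, 6019, 6591, 5955 and 8025 in old controls and 6065, 6847, 7565 and 7030 in old runners. It differed by -0.06, and Nbr1, a relative of Sqstm1, by 0.29 (limma adjusted p = 0.207).

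The transcription factors that drive lysosomal genes did not pass either. Tfeb had 6316, 5317, 4741 and 4620 normalised reads in young controls, 4437, 5900, 6874 and 3586 in young runners, 4735, 3739, 4647 and 5095 in old controls and 5435, 5938, 5202 and 5647 in old runners. Old runners lay above old controls without overlap (0.28, SE 0.12, limma adjusted p = 0.275), and young runners spread around the young controls (-0.05). The mean was 0.12 (95% interval -0.14 to 0.37), and that of Tfe3 was 0.01. Activity of TFEB depends on its phosphorylation and place in the cell, which RNA levels do not show.

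Counting members whose groups did not overlap gave a like picture. In old mice 4 of 41 members (9.76%) had no overlap, beside 10.2% of all genes (4.86% higher, 5.29% lower): Atg9a, Atg7 and Tfeb were higher and Bnip3 lower in runners. In young mice 5 members (12.2%) had none, beside 11.5% of genes (5.71% higher): Wipi2, Atg4b, Sqstm1, Ctsb and Ctsd were higher in runners. No member was on both lists, but the share of all genes on both is not given here, so this has no reading. In either direction the 9.76% and 12.2% of members lie near the shares of all genes. The difference between the 2 running effects passed for 0 of 41 members and 0 of 9356 genes, and at an unadjusted p under 0.05 limma gave 2 members (Atg4b and Ctsz, both lower, 4.88%) beside 6.25% of genes (2.85% lower).

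The second question was how the same genes differed with age. No member passed in controls, in runners or as the mean of both (0 of 41 each, beside 0.112%, 0.0213% and 0.728% of genes). The members leaned toward higher values in old controls: 32 of 41 differences were positive, with a median of 0.20 beside -0.01 over all genes. At an unadjusted p under 0.05, limma gave 5 members in controls, each higher in old mice (12.2%, beside 11.2% of genes in either direction and 5.43% higher), 0 in runners (beside 4.91%) and 6 in the mean of both, each higher (14.6%, beside 11.8% in either direction and 6.47% higher). In runners 29 of 41 were positive with a median of 0.06. Differences in controls fell with exon length (Spearman's rho over 9632 genes -0.223), and in runners hardly (-0.015). The part of length in the members' lean was not tested. The 2 age comparisons share no library with each other, but both reuse the libraries of the running comparisons.

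The members with the smallest p for age belonged to conjugation, the PI3K complex and the proteases. Atg16l1, which places the conjugation enzyme on the membrane, had 570, 1137, 1227 and 1506 normalised reads in young controls and 1685, 2086, 2123 and 2251 in old controls, without overlap. It had 913, 1359, 900 and 1683 in young runners and 1366, 1390, 1378 and 1854 in old runners, which overlapped. Its age difference was 0.79 in controls (SE 0.22, limma adjusted p = 0.229) and 0.53 on average (SE 0.15, adjusted p = 0.136). Atg4a, another ATG8 protease, had 3496, 2803, 2089 and 2900 in young controls, 3144, 2858, 2936 and 3385 in young runners, 3356, 4414, 4579 and 3962 in old controls and 3636, 3318, 3645 and 3259 in old runners. Its age difference was 0.52 in controls (SE 0.17, limma adjusted p = 0.292) and 0.34 on average (SE 0.10, adjusted p = 0.157). Pik3c3 differed by 0.57 on average (SE 0.19, limma adjusted p = 0.219). Ctsz, whose old controls all lay above the young controls, differed by 0.58 in controls (SE 0.18, limma adjusted p = 0.275) and 0.02 in runners.

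The 4 proteases had positive age differences in controls, from 0.32 for Ctsd to 0.58 for Ctsz with a median of 0.41, and lay between 0.00 and 0.05 in runners. Apart from rounding and the scale of each table, runners minus controls of these differences is the contrast of running effects given above. The 2 patterns are thus 1 observation on the same libraries. The initiation complex was the 1 step whose 4 genes all had lower means in old controls (median -0.23, lowest -0.64 for Ulk2). In old and young controls 4 members (9.76%) did not overlap, beside 7% of genes (4.16% higher): Pik3c3, Atg4b, Atg16l1 and Ctsz, each higher in old mice. In runners 2 did not overlap (4.88%, beside 3.38% of genes and 1.54% lower), Atg14 and Sqstm1, both lower in old mice on the scale of the deposited table. In runners the smallest p values were those of Atg7 (0.33), Optn (0.25) and Atg14 (-0.26), with limma adjusted p from 0.982 to 0.988.

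**Figure D4:**
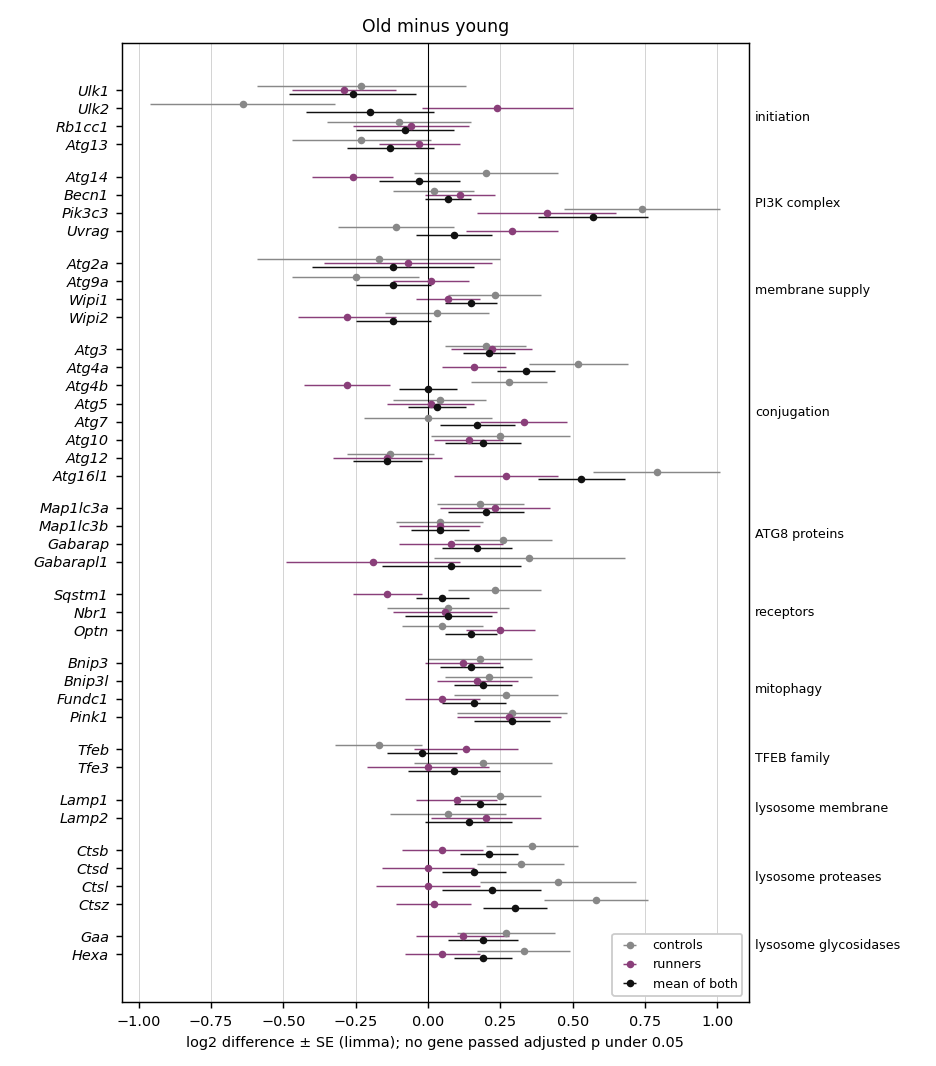
Log2 difference of old minus young (horizontal axis, ± SE from limma) for each gene by step, in controls, in runners and as the mean of both. No gene passed an adjusted p under 0.05; Atg16l1 at 0.79 and Pik3c3 at 0.74 lie farthest right in controls and Ulk2 at -0.64 farthest left.

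Other genes of the pathway were taken from a list of 139 genes that had no member in it. Of these, 128 could be tested for the mean running effect, and 18 passed, 11 higher and 7 lower in runners (14.1%, beside 9.92% of all genes), with a median of 0.04 that equalled the median of all genes. In nutrient and energy control, Prkaa1, the catalytic alpha 1 subunit of the energy sensor AMPK, rose from 690.5 ± 303 to 1604 ± 375 normalised reads in young mice and from 617 ± 199 to 1222 ± 281 in old mice (SD, n = 4). Its mean difference was 0.91 (SE 0.19, limma adjusted p = 0.0103). Tsc2, which restrains the growth kinase mTORC1, rose by 0.84 (SE 0.16, limma adjusted p = 0.00549) and also passed in old mice alone (1.05, adjusted p = 0.0458), where removal of any 1 of O1ex, O2ex, O3ex, O4ex, Oc2, Oc3 and Oc4 ended the call (adjusted p from 0.056 to 0.219). The call in old mice was also lost with the length trend removed (limma adjusted p = 0.107) and with the length index as a covariate (0.0973). No filter (0.064), limma without the variance trend (0.0596) and voom on the recovered reads (0.0583) ended it too. In the same class Lamtor3 fell by 0.56 (limma adjusted p = 0.00466) and Lamtor5 fell by 0.46 (limma adjusted p = 0.013). Both code for parts of the Ragulator, which anchors mTORC1 to the lysosome. With the length trend removed, Lamtor5 differed by -0.30 and its call was lost (limma adjusted p = 0.077).

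Among genes of fusion with the lysosome, 3 of 14 rose and none fell (21.4%, beside 5.07% of all genes higher and 9.92% in either direction). Plekhm1, an adaptor that links autophagosomes to the lysosomal fusion machinery, went from 966 ± 159.6 to 2071 ± 331 normalised reads in young mice and from 934 ± 335 to 1667 ± 283 in old mice (SD, n = 4). It rose by 0.82 (SE 0.13, limma adjusted p = 0.0022) on average, and by 0.96 in young mice alone (adjusted p = 0.0451), where removal of any 1 of Y1ex, Y2ex, Y3ex, Y4ex, Yc5, Yc7 and Yc8 ended the call (adjusted p from 0.0619 to 0.168). The call in young mice was also lost with no filter (limma adjusted p = 0.0706) and without the variance trend (0.0541). Voom on the recovered reads (0.064) and removal of the length trend (0.0571) ended it too. Vps16 (0.43, limma adjusted p = 0.0264) and Vps33a (0.42, limma adjusted p = 0.0381), subunits of the HOPS tether, rose as well. The Vps16 call was lost without O2ex or O4ex (adjusted p from 0.054 to 0.0603) and with median centring (0.051). That of Vps33a was lost without any 1 of O2ex, O3ex, O4ex, Oc2, Oc3, Y2ex, Y4ex, Yc4 and Yc7 (adjusted p from 0.0568 to 0.0868). It was also lost with the length trend removed (limma adjusted p = 0.086) and with the length index as a covariate (0.0859). The same held with no filter (0.0571), quantile normalisation (0.0731) and without the 4 libraries with fewest genes (0.135).

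In the proton pump that acidifies the lysosome, 3 genes of the membrane sector passed, 2 lower and 1 higher in runners. Atp6v0b fell from 5574 ± 509 to 3549 ± 462 normalised reads in young mice and from 4454 ± 294 to 2919 ± 341 in old mice (SD, n = 4), a mean of -0.59 (SE 0.09, limma adjusted p = 0.00163). Atp6v0e fell by 0.39 (limma adjusted p = 0.0251), a call that was lost without O4ex, Y2ex, Y4ex or Yc8 (adjusted p from 0.0518 to 0.0573). The length index as a covariate also ended it (limma adjusted p = 0.0537). Atp6v0a1 rose by 0.55 (limma adjusted p = 0.0465), and 12 of 16 removals of 1 library ended that call (adjusted p from 0.0561 to 0.0973). It held without Oc1, Y1ex, Y3ex or Yc5. With the length index as a covariate the difference was 0.33 (limma adjusted p = 0.155). Removal of the length trend (adjusted p = 0.108), no filter (0.0764), quantile normalisation (0.0581) and limma without the variance trend (0.0559) also ended the call. The other 14 pump genes did not pass, so 3 of 17 did (17.6%, beside 9.92% of all genes). At an unadjusted limma p under 0.05 there were 7 pump genes (41.2%, beside 28.7% of all genes). Of these, 6 were lower and 1 was higher in runners, beside 12.5% of all genes lower and 16.2% higher.

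Of 5 further conjugation and ATG8 genes 2 fell (40%, beside 4.85% of all genes lower and 9.92% in either direction). Atg4c, an ATG8 protease, fell by 0.59 (SE 0.14, limma adjusted p = 0.0181), from 569 ± 154 to 273 ± 86.3 in young and from 451 ± 119 to 258 ± 79.9 normalised reads in old mice (SD, n = 4). Atg16l2 fell by 0.69 (limma adjusted p = 0.0264), lost without O1ex, O4ex, Y2ex or Yc7 (adjusted p from 0.0514 to 0.0612) and with voom on the recovered reads (-1.22, adjusted p = 0.113), which gave -0.92 for Atg4c (adjusted p = 0.0271). Acp2, a lysosomal acid phosphatase, rose by 0.66 (SE 0.13, limma adjusted p = 0.0075), from 573 ± 173 to 1166 ± 32.5 in young and from 743 ± 226 to 1119 ± 84 normalised reads in old mice (SD, n = 4). Neu1, the lysosomal sialidase, fell by 0.40 (limma adjusted p = 0.0244), lost without O4ex or Oc2 (adjusted p from 0.0504 to 0.0506). That call was also lost without the 4 libraries with fewest genes (limma adjusted p = 0.0534). Bag3, the cochaperone of chaperone-assisted autophagy of damaged sarcomere proteins, rose by 0.38 (limma adjusted p = 0.0305), lost without any 1 of O1ex, O2ex, O4ex, Oc3, Y2ex, Y4ex, Yc7 and Yc8 (adjusted p from 0.0512 to 0.0705). Median centring also ended the Bag3 call (limma adjusted p = 0.0637). Beyond the 8 largest rises, Tpp1 rose by 0.36, Laptm4b by 0.34 and Scarb2 by 0.31 (limma adjusted p = 0.0489, 0.0444 and 0.0456), and 11, 13 and 13 of the 16 removals of 1 library ended these calls. With the length trend removed Scarb2 differed by 0.20 (limma adjusted p = 0.183). The Tpp1 call was also lost with that trend removed (limma adjusted p = 0.132) and with the length index as a covariate (0.134). No filter, median centring, quantile normalisation and limma without the variance trend each ended all 3 calls (adjusted p from 0.0554 to 0.106). The Laptm4b call was lost too without the 4 libraries with fewest genes (limma adjusted p = 0.0682). By class, 4 of 22 genes of nutrient and energy control passed (18.2%), and 2 of 15 other lysosomal membrane proteins (13.3%). Of other lysosomal enzymes and activators 3 of 30 passed (10.0%), and of other receptors and mitophagy genes 1 of 14 (7.14%). None of 11 other initiation and nucleation genes passed. All these shares stand beside 9.92% of all genes.

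For age, Tax1bp1, a ubiquitin-binding receptor related to Sqstm1 in role, was the 1 gene of this longer list that passed. Averaged over controls and runners it was higher in old mice by 0.34 (SE 0.08, limma adjusted p = 0.0466; 0.787% of the 127 tested, beside 0.728% of genes). It had 5589 ± 237 normalised reads in young controls, 6723 ± 821 in young runners, 7724 ± 347 in old controls and 7803 ± 327 in old runners (SD, n = 4). Removal of any 1 library other than Yc4 ended the call (limma adjusted p from 0.0637 to 0.111). In controls alone none passed, the smallest p being those of Tax1bp1 (0.47, limma adjusted p = 0.209) and Scarb2 (0.52, limma adjusted p = 0.241), a lysosomal membrane protein. In runners alone Gusb (0.65) and Idua (-0.49), both glycosidases, came first, with limma adjusted p of 0.582 and 0.607. For the contrast of the running effects, Scarb2 (-0.58) and Mlst8 (0.86), an mTOR partner, came first, with limma adjusted p of 0.687 and 0.711.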

How the data were processed

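Libraries were made from myofiber RNA with a low-input SMART-Seq kit, per the labels' protocols. The submitters' processing notes name Trim Galore, STAR, featureCounts, Subread, DESeq2 and the build mm10, without versions. The authors deposited 4 tables, 1 for each pair of groups, of log2 values on the scale of the variance-stabilising transformation of DESeq2. Inverting that transformation gave whole reads for 100% of values (within 0.02), and libraries present in 2 tables gave the same reads (307356 values, 0 different). These reads, divided by size factors over the 16 libraries, are the normalised reads. Exon lengths and coordinates are those of GENCODE M21 (GRCm38), matched by symbol. Sequences are RefSeq's.

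Tests used limma 3.58.1 in R 4.3.3 on the deposited log2 values (variance trend, 2-sided, Benjamini-Hochberg over all genes at least 1 above the table's floor in at least 4 libraries), per table, or over 2 joined tables with a term for the table. An adjusted p under 0.05 is called. The fits were tested on simulated data. Members and lists were chosen with earlier results of these data known. Named with values in every library are members called in any comparison, the 3 of smallest p in each, and the highest per kilobase in each step; of the longer list, genes called, at most 8 in each direction, or else the 2 of smallest p. Lists of markers for 10 cell types were summed. Tendon markers summed to 940 to 3268 normalised reads over the libraries, erythroid markers to 13 to 912 and adipocyte markers to 0 to 5.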

Additional observations from a re-analysis of the deposited data

Results flagged for a closer look

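In 3 of 84 groups of 4 libraries, tested for the members named with all their values, 1 library stood apart from the other 3 by more than Dixon's critical value for 4 values. Chance flags about 1 in 20 such groups. Atg16l1 in old runners had 1854 normalised reads in O4ex and 1366 to 1390 in the others. Map1lc3a in old runners had 29683 in O1ex and 17431 to 18929 in the others. Sqstm1 in young controls had 71959 in Yc4 and 51107 to 53272 in the others.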

How the results depend on the processing

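Over 42 gene results and 1012 alternatives 0 changed direction, 181 lost and 17 gained a call. The 42 were the called genes and the 3 members of smallest p in each comparison. They were chosen and refitted on the same libraries, so a kept direction was likely in advance and gives no separate support. The Ctsb call for the mean running effect was kept in 27 of 27 alternatives, that of Atg9a in 16 and that of Pink1 in 11. Beside 3 members called for that effect, there was 1 without a filter, 5 with a minimum of 2 above the floor, 5 with quantile normalisation, 14 with array weights and 5 with voom on the recovered reads. Over all genes the same settings gave 733, 879, 948, 2544 and 848 in that order, beside 928. Array weights gave 4 members in old mice, 3 in young mice, 4 for age in controls and 3 for mean age, beside 0 each; the length index as a covariate (chosen after seeing the data) gave 1 for running in young mice and 1 for mean age, and leaving out the 4 libraries with fewest genes (also chosen after seeing the data) gave 2 for mean age. The cause was not tested. Leaving out 1 library gave 1 to 6 members for the mean running effect (1 without O1ex, O2ex, O4ex, Oc2, Oc3, Y2ex or Y4ex, 5 without Y1ex, 6 without Yc5), 0 to 2 in old mice (2 without Oc1), 0 to 1 for mean age (1 without Yc4) and 0 to 0 in the other comparisons. Over all genes the counts with 1 library left out were 368 (Y2ex) to 1281 (Yc5) for the mean running effect beside 928, 1 to 295 (Oc1) in old mice beside 12, 0 (Y2ex) to 181 (Yc4) in young mice beside 81, 0 to 5 (Yc4) for the contrast of both beside 0, 3 to 52 (Yc4) for age in controls beside 11, 0 to 3 (O1ex) in runners beside 2 and 31 (O2ex) to 136 (Yc4) for mean age beside 67. Over all genes, for running in old mice, running in young mice and age in controls, the counts were 7, 24 and 3 with no filter, 24, 228 and 28 with quantile normalisation, 688, 1394 and 461 with array weights, 3, 13 and 3 with voom, and 0, 459 and 6 with the length index. For old and young mice median centring gave 23 and 143 genes, and limma without the variance trend 4 and 47. The stricter minimum gave 27 in old mice and 41 for mean age, and removing the length trend 2 in old mice. Array weights gave 2544 for the mean running effect, 27 for the contrast, 7 for age in runners and 659 for mean age. Mean age had 36 with voom, 102 with the length index and 271 without the 4 libraries, which gave 4 for the contrast. With the replicate block on runners 1 to 3, age in runners had 0 genes and 0 members, and 0 on these 6 libraries without it. Same-numbered runners correlated at -0.37, 0.17 and -0.34, and runners of unlike number at -0.22 to 0.41. These correlations use deviations from means of 3 libraries, so they cannot decide whether the numbers pair the runners. The 4 libraries per group limit the precision, as the intervals show.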

Other observations

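Within groups, 820 pairs of members were compared over the 16 libraries, as log2 normalised reads minus the group mean, with 100000 permutations within groups. The median r was 0.01. After Benjamini-Hochberg adjustment 1 pair passed: Uvrag and Gabarap, with r = -0.86 and rho = -0.90 (permutation p = 2e-05, adjusted p = 0.0164) and r = -0.80 without the 2 farthest libraries. Both genes also followed the length index of the libraries, in opposite directions (Gabarap, 1.84 kb of exon, r = -0.92; Uvrag, 9.04 kb, r = 0.54; a description with no test), and the part of this in the pair's correlation was not tested.

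Gabarapl1 varied widely inside each group, and Ctsl varied with it; this pair was chosen after its values were seen. Gabarapl1 had 16299, 9420, 6104 and 4874 normalised reads in young controls, 12946, 8827, 5057 and 11877 in young runners, 7540, 10097, 11132 and 13859 in old controls and 5130, 11054, 10706 and 6419 in old runners. Ctsl had 17242, 8251, 9215 and 7155, then 10660, 8027, 8747 and 9894, then 9414, 15125, 13056 and 17145, then 6913, 11220, 12073 and 7612 in the same order. For the pair, r was 0.83 and rho 0.82 (permutation p = 0.0008, adjusted p = 0.0966), and r was 0.85 without the 2 farthest libraries, so it did not pass the adjustment. Among 7993 genes, Ctsl ranked 154 in likeness to Gabarapl1, and Gabarapl1 ranked 41 in likeness to Ctsl, so many genes came before either. The genes most like Gabarapl1 included Cgref1 and Klhl40, a sarcomere protein stabiliser, both with r of 0.97. Ankrd1, a stretch-responsive titin partner, and Timp1 had 0.95, and Osmr had 0.93, given as a description with no test. Ankrd1 ranged from 32029 (Yc8) to 157428 (Yc4) normalised reads, and Gabarapl1 and Ctsl were also highest among young controls in Yc4 and lowest in Yc8. The overlapping other-strand gene 1700101I11Rik, at 191 to 2989 normalised reads, had r of 0.95 with Gabarapl1, and the macrophage marker Cd68, at 230 to 2293, had r of 0.88. The part of either was not tested.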
